A study of Mus musculus with 9 samples.

Results

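The genes described here are 9 transporters that carry drugs, bile acids and conjugates across the hepatocyte membrane: Slco1a1, Slco1a4, Slco1b2, Slco2b1, Abcc2, Abcc3, Abcb1a, Abcb4 and Abcg2. They were chosen by symbol, and all 9 were found among the 21130 distinct gene symbols that stand alone on a probe set of the array. Each symbol had 1 such probe set. A further probe set that carries Abcc2 together with a predicted gene was not used.

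Liver RNA was hybridised to 9 Clariom S mouse arrays, on which each probe set gives 1 summarised value. All mice were male C57BL/6JHamSlc-ob/ob animals, obese because they lack functional leptin, and were 6 weeks old when bought. After acclimatisation they received vehicle, or an extract of the rice bean Vigna umbellata (VE) at 50 mg/kg (VE50) or 100 mg/kg (VE100), by oral gavage for 42 days, with 3 arrays in each group. Arrays are numbered within each group, without a statement that each came from its own animal, so the p-values measure the spread between these labelled samples. Every group, the vehicle group included, carries the ob/ob genotype, and wild-type livers were not analysed here.

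Organic anion transporting polypeptides (the Slco genes) sit mainly on the sinusoidal, blood-facing membrane and take up bile acids, hormone conjugates and drugs. ATP-binding cassette pumps export them. Abcc2, Abcb1a, Abcb4 and Abcg2 act at the canalicular membrane, which faces bile, and Abcc3 returns conjugates to blood across the basolateral membrane. In liver, genes of both kinds are known targets of the xenobiotic receptors PXR (Nr1i2) and CAR (Nr1i3), and inflammation is known to lower many of them.

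Values below are log2 signal, on which 1 unit is a doubling, and errors beside group means are SD over 3 arrays. A probe set's signal was not set against that of another. Hepatocyte markers were present: 7 of the 8 listed genes were measured, all 7 exceeded the background limit (the 95th percentile of negative controls in the deposited value table) on all 9 arrays, and their mean ran from 17.65 to 18.25 per array. Each probe set was held against the limit with its level in that table, which differs from its level in the signal sheet; all levels printed, the hepatocyte mean included, are those of the sheet. The limit ran from 9.10 to 9.76, and it was exceeded by 14.3% (vehicle 3) to 20.2% (vehicle 1) of probe sets. By the same measure, 7 of the transporters lay above background on all 9 arrays, Abcb1a on 8, and Slco1a1 on 0.

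None of the 9 transporters passed a test for a difference between vehicle, VE50 and VE100 when all 9 arrays were used. In a linear model over all 22206 probe sets (limma, Benjamini-Hochberg adjustment), 0 of 9 had an adjusted p under 0.05 in each comparison, and of all probe sets 0.0% did. At the study's own criterion, which asks for an unadjusted p under 0.05 and for a fold over 1.1, the count was also 0 of 9 in each. Of all probe sets, 6.12% passed that criterion for VE50 against vehicle, 9.48% for VE100 against vehicle and 2.91% for VE100 against VE50. The arrays of no transporter lay apart between the groups compared, where 10.9%, 13.6% and 10.0% of all probe sets did. The median difference of the 9 genes was 0.20 for VE50 against vehicle, with 6 above 0 and 3 below, and 0.25 for VE100 against vehicle, with 5 above 0 and 4 below. The median over all probe sets was -0.01 in both. Both comparisons share the vehicle arrays. The 95% intervals of the differences were 0.96 to 3.58 wide on the log2 scale, so misses of the threshold do not show that the groups were alike. In whole liver, fewer cells of a type and less RNA per cell cannot be told apart.

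**Figure D1:**
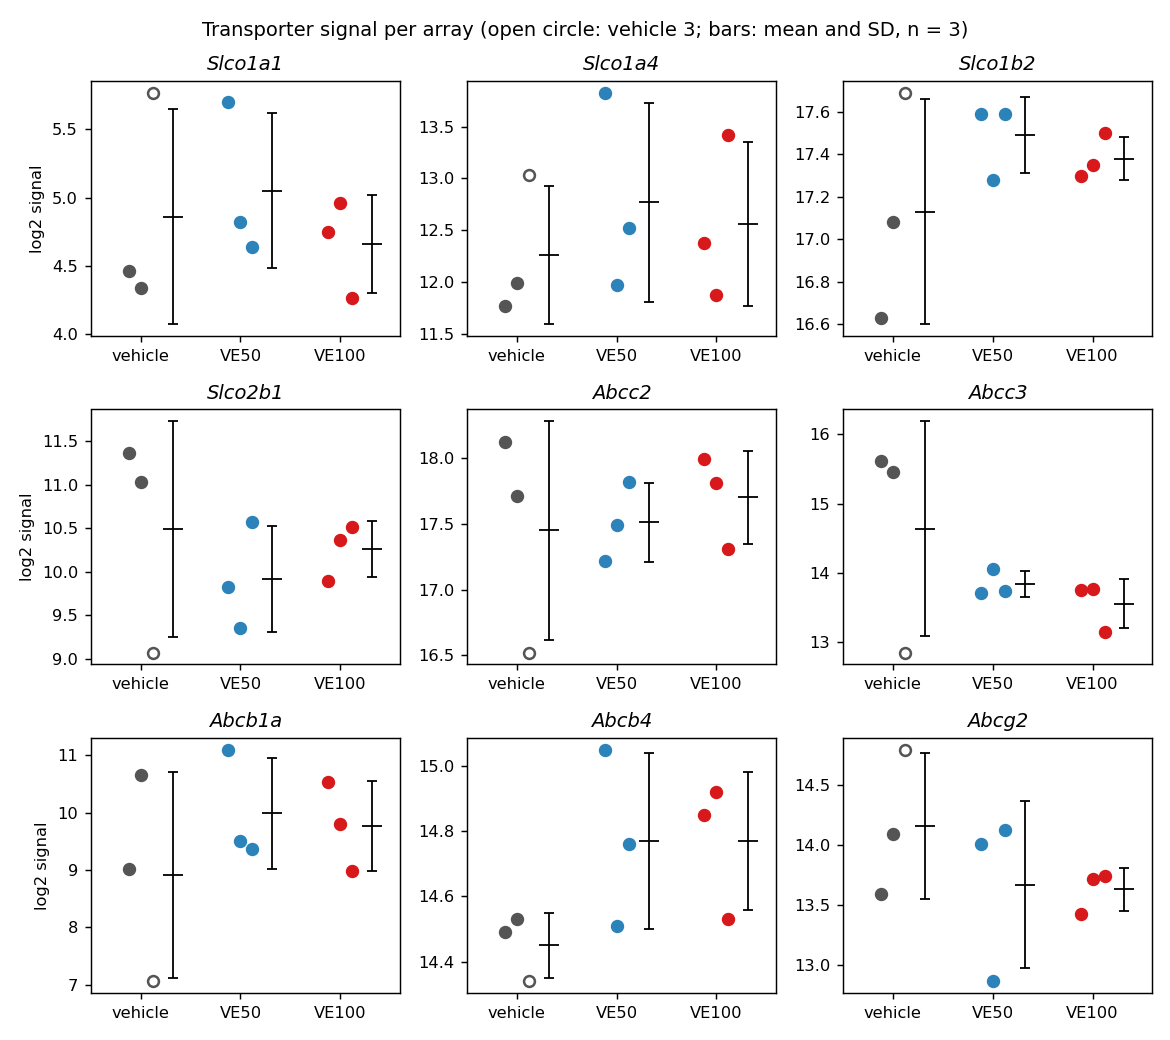
Log2 signal of each transporter (one panel per gene) on every array, by group on the x axis (vehicle, VE50, VE100; 3 arrays each), with points for arrays, bars beside them for the mean and SD, and an open circle for vehicle 3; the y axes differ between panels and do not start at 0. The groups overlap in every panel, and vehicle 3 is the highest or lowest of the 9 arrays for 8 of the 9 genes.

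Among the uptake transporters, Slco1b2 is the mouse gene of the liver-restricted carrier family whose human counterparts take up statins and bilirubin conjugates. Its signal (TC0600001672.mm.2, chromosome 6) was 16.63, 17.08 and 17.69 on vehicle 1 to 3, 17.59, 17.28 and 17.59 on the VE50 arrays, and 17.30, 17.35 and 17.50 on the VE100 arrays. Vehicle 3 was the highest array and vehicle 1 the lowest, so the treated arrays all lay within the vehicle range. The difference was 0.35 ± 0.27 (SE) for VE50 against vehicle (adjusted p = 0.875) and 0.25 ± 0.27 for VE100 (adjusted p = 0.796).

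Slco1a4, a carrier of bile acids and cardiac glycosides and a PXR target in mouse, gave 11.77, 11.99 and 13.03 on vehicle, 13.83, 11.97 and 12.52 on VE50, and 12.38, 11.87 and 13.42 on VE100 (TC0600003364.mm.2, chromosome 6). Each group held both low and high arrays. The group means were 12.26 ± 0.67, 12.77 ± 0.96 and 12.56 ± 0.79, and neither dose passed the test against vehicle (0.51 ± 0.54, adjusted p = 0.917; 0.29 ± 0.54, adjusted p = 0.896).

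Slco2b1 transports sulphated steroids and is expressed in several tissues. Its signal (TC0700003804.mm.2, chromosome 7) was 11.36, 11.03 and 9.07 on vehicle, 9.83, 9.35 and 10.57 on VE50, and 9.90, 10.37 and 10.52 on VE100. Vehicle 1 and vehicle 2 lay above all 6 treated arrays and vehicle 3 below all 6. The differences from vehicle, -0.57 ± 0.54 for VE50 (adjusted p = 0.904) and -0.22 ± 0.54 for VE100 (adjusted p = 0.925), were smaller than the vehicle group's own SD of 1.24.

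Slco1a1, a steroid sulphate carrier that male mouse liver normally expresses strongly, was not above background on any array here. Its values ran from 4.26 to 5.77 (TC0600003365.mm.2, chromosome 6), with group means of 4.86 ± 0.79 for vehicle, 5.05 ± 0.57 for VE50 and 4.66 ± 0.36 for VE100, and the moderated F-test over the 3 groups gave an adjusted p of 0.957. No fold is given for it. The gene lies on chromosome 6 beside Slco1a4 and close to Slco1b2, and this cluster holds similar carriers whose transcripts a short probe may not fully separate. Of the 5 male-biased hepatocyte genes listed, Mup20 and Cyp4a12a were above background on all 9 arrays, Elovl3 on 5, Cyp7b1 on 1 and Hsd3b5 on 0, and the mean of the 5 ran from 9.86 to 11.39.

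For each of the canalicular pumps the groups overlapped. Abcc2, which exports bilirubin glucuronide and glutathione conjugates into bile, gave 18.12, 17.71 and 16.52 on vehicle, 17.22, 17.49 and 17.82 on VE50, and 17.99, 17.81 and 17.31 on VE100 (TC1900000636.mm.2, chromosome 19). Vehicle held both the highest and the lowest array. The difference was 0.06 for VE50 against vehicle (95% interval -0.80 to 0.92, adjusted p = 0.987) and 0.25 for VE100 (-0.60 to 1.11, adjusted p = 0.867).

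Abcb1a encodes a P-glycoprotein that exports many hydrophobic drugs. Its values (TC0500000050.mm.2, chromosome 5) were 9.02, 10.66 and 7.06 on vehicle, 11.10, 9.50 and 9.36 on VE50, and 10.53, 9.80 and 8.98 on VE100. Only vehicle 3 was not above background, and the vehicle SD of 1.80 was the widest of the 27 transporter and group pairs. The differences from vehicle were 1.07 for VE50 (95% interval -0.72 to 2.86, adjusted p = 0.875) and 0.86 for VE100 (-0.93 to 2.65, adjusted p = 0.758).

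Abcb4 encodes the flippase that moves phosphatidylcholine into bile and was the tightest of the 9 within the vehicle group. It gave 14.49, 14.53 and 14.34 on vehicle, 15.05, 14.51 and 14.76 on VE50, and 14.85, 14.92 and 14.53 on VE100 (TC0500000054.mm.2, chromosome 5). VE50 2 lay within the vehicle range and VE100 3 level with vehicle 2, while the other 4 treated arrays lay above all vehicle arrays. The difference was 0.32 for VE50 (95% interval -0.16 to 0.80, adjusted p = 0.861) and 0.31 for VE100 (-0.17 to 0.80, adjusted p = 0.669). Abcb1a, Abcb1b and Abcb4 are neighbours on chromosome 5 and similar in sequence, so cross-hybridisation between them is uncertain.

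Abcg2, the breast cancer resistance protein, exports sulphate conjugates, urate and drugs. Its signal (TC0600000711.mm.2, chromosome 6) was 13.59, 14.09 and 14.80 on vehicle, 14.01, 12.86 and 14.13 on VE50, and 13.42, 13.72 and 13.74 on VE100. The VE100 arrays sat close together and vehicle 3 was the highest array. The difference was -0.49 for VE50 (95% interval -1.34 to 0.36, adjusted p = 0.875) and -0.53 for VE100 (-1.38 to 0.32, adjusted p = 0.681).

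Abcc3, the basolateral pump for glucuronides, had the largest difference from vehicle among the 9 at VE100. Its signal (TC1100003561.mm.2, chromosome 11) was 15.62, 15.45 and 12.85 on vehicle, 13.71, 14.06 and 13.74 on VE50, and 13.75, 13.77 and 13.15 on VE100. All 6 treated arrays lay below vehicle 1 and vehicle 2 and above vehicle 3. With all arrays the difference was -0.80 for VE50 (95% interval -2.14 to 0.54, adjusted p = 0.875) and -1.08 for VE100 (-2.42 to 0.26, adjusted p = 0.606).

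No transporter passed the test between the doses. Over the 8 genes above background on most arrays, VE100 minus VE50 ran from -0.28 (Abcc3) to 0.35 (Slco2b1), and the adjusted p was 1.0 for all 9. For Abcb1a, the 95% interval of that difference was -2.01 to 1.57.

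**Figure D2:**
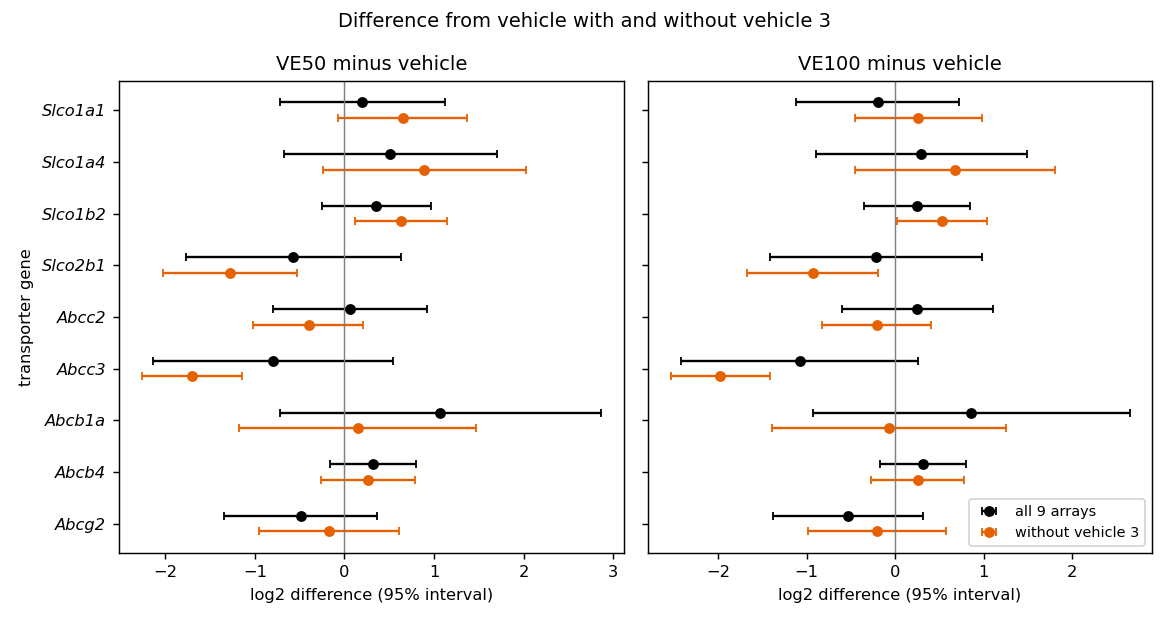
Log2 difference of each transporter (y axis) for VE50 minus vehicle (left) and VE100 minus vehicle (right), with 95% intervals from the fit, using all 9 arrays (black) and without vehicle 3 (orange). With all arrays every interval spans 0, and without vehicle 3 the intervals of Abcc3, Slco2b1 and Slco1b2 against vehicle do not.

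Vehicle arrays lay at an extreme for most of these genes. Vehicle 1 was the highest of the 9 arrays for 3 genes and the lowest for 2. That makes 5 of 9 genes at an extreme, against 27.4% of all probe sets. Vehicle 3 was the highest of the 9 arrays for Slco1a1, Slco1b2 and Abcg2 and the lowest for Slco2b1, Abcc2, Abcc3, Abcb1a and Abcb4, which makes 8 of 9 genes at an extreme, against 43.8% of all probe sets. Relative to the mean of vehicle 1 and vehicle 2, its difference was -2.69 for Abcc3, -2.12 for Slco2b1, -1.39 for Abcc2 and -0.17 for Abcb4. It was higher by 1.15 for Slco1a4, 0.96 for Abcg2 and 0.84 for Slco1b2. No size is given for Slco1a1, not above background on any array, or for Abcb1a, not above background on vehicle 3. The same array had the highest acute phase signal. Serum amyloid A2 (Saa2), a protein the liver makes in inflammation, was at 18.75 on vehicle 3 and at 7.84 to 11.81 on the others. Lipocalin 2 (Lcn2) was at 15.71 there and at 7.09 to 12.34 elsewhere, and the mean of the 6 acute phase genes was 16.15 against 10.25 to 12.51. Slc10a1, the sodium-dependent bile acid uptake carrier NTCP, was at 12.51 on vehicle 3 and at 15.15 to 16.67 on the other arrays. The endothelial marker mean was 7.00 on vehicle 3 and 7.19 to 8.21 elsewhere, but 0 of its 7 genes were above background on all arrays, and 3 were on none. The part of any of these in the transporter values was not tested.

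Leaving out vehicle 3 brought 3 of the 9 transporters past the study's criterion at each dose. Of all probe sets, 13.5% passed for VE50 and 16.6% for VE100. Vehicle 3 was the lowest array for Abcc3, whose SE with all arrays was 0.60 at each dose. Without vehicle 3, the vehicle group rests on vehicle 1 and vehicle 2 alone, and the sizes and p-values that follow depend on that choice. The difference of Abcc3 was then -1.70 ± 0.26 (SE) at VE50, 3.25-fold lower (adjusted p = 0.0635), and -1.98 ± 0.26 at VE100, 3.94-fold lower (adjusted p = 0.00869). It was the only one of the 9 past the adjusted threshold, at VE100, where 1.95% of all probe sets passed. The difference of Slco2b1 was -1.28 ± 0.34 at VE50 (adjusted p = 0.133) and -0.93 ± 0.34 at VE100 (adjusted p = 0.188). Slco1b2 was higher by 0.63 ± 0.23 at VE50 (adjusted p = 0.265) and by 0.53 ± 0.23 at VE100 (adjusted p = 0.282). For VE100 against VE50 the count stayed at 0 of 9 (5.62% of all probe sets). Of all probe sets, 0.045% passed the adjusted threshold at VE50 and 0.0% between doses.

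Other changes to the fit also moved calls. Without vehicle 2, Abcb1a alone of the 9 passed the criterion, at 1.95 for VE50 (7.43% of all probe sets) and 1.73 for VE100 (9.8%). None did between doses (2.7%). The vehicle mean of Abcb1a then rests on vehicle 1 and vehicle 3, and Abcb1a was not above background on vehicle 3, so its sizes are uncertain. With array weights, which let limma give less weight to arrays that depart from the model, Abcc3 (-1.50), Slco2b1 (-1.05) and Slco1b2 (0.53) passed at VE50 (13.1% of all), Abcc3 alone at VE100 (-1.76; 16.9%), and none between doses (5.71%). In the deposited value table, Abcc3 alone passed at VE100 (-1.18; 9.19% of all), and none did at VE50 (5.93%) or between doses (2.98%).

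Vehicle 1 and vehicle 2 were also the lowest arrays in these control probe set measures. The median negative control minus the median positive control was -3.88 on vehicle 1 and -3.79 on vehicle 2, and ran from -3.53 to -3.12 over VE50 and VE100. The mean of the hybridisation controls was 10.84 and 10.73 on that pair and 10.93 to 11.44 over VE50 and VE100. Vehicle 3 had -3.41 and 11.01. Without vehicle 3, treatment and this difference between arrays cannot be told apart.

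For Abcc3 and Slco2b1, the vehicle average in the authors' deposited table lies closer to vehicle 1 and vehicle 2 than the arithmetic mean does. All 27 averages of the 9 genes in the authors' deposited table matched a one-step Tukey biweight of the 3 arrays within 0.02, an average that gives little weight to a distant array. For Abcc3, the authors' deposited table gives 15.53 for vehicle, 13.72 for VE50 and 13.76 for VE100, differences of -1.81 and -1.77, where the arithmetic vehicle mean was 14.64. For Slco2b1, the authors' deposited table gives 11.19 for vehicle, with differences of -1.30 and -0.83, where the arithmetic vehicle mean was 10.49. None of the 9 is among the 1815 rows of the authors' deposited table of VE100 against vehicle.

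The F-test in the authors' deposited table, whose conditions are not named, passed more of these genes than the F-test over the 3 groups did. In the authors' deposited table the F-test p was 7e-13 for Slco1a1, 6.12e-06 for Abcb4, 0.0005 for Abcg2, 0.0006 for Abcb1a and 0.0433 for Abcc3, so that 5 of 9 lay under 0.05, against 16.3% of all probe sets. By its FDR, 4 of 9 lay under 0.05, against 2.46% of all. In the moderated F-test over vehicle, VE50 and VE100, 0 of 9 had p under 0.05, against 6.54% of all probe sets, and p was 0.644 for Slco1a1, 0.289 for Abcb4, 0.340 for Abcg2, 0.405 for Abcb1a and 0.224 for Abcc3. Which arrays entered the deposited F-test is not given in the sources used here.

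The transporters did not move as 1 block across arrays. Of the 28 pairs without Slco1a1, which was not above background, 14 had a Pearson r above 0 over the 9 arrays, all from the same livers and the same normalisation, and 10 changed sign without vehicle 3. The lowest was -0.90, between Slco1b2 and Abcc3, and it was -0.88 over the 8 arrays without vehicle 3. Vehicle 1 and vehicle 2 held the lowest Slco1b2 values (16.63 and 17.08) and the highest Abcc3 values (15.62 and 15.45). Leaving out vehicle 3 keeps that difference from the treated arrays in the r. Slco2b1 and Abcc3 had r = 0.73 (0.64 without vehicle 3), as did the neighbouring genes Abcb1a and Abcb4 (0.61 without). Vehicle 1 and vehicle 2 were the highest arrays for both Slco2b1 and Abcc3, so their r holds the difference of vehicle 1 and vehicle 2 from the treated arrays. Correlation within the treated arrays was not tested. Slco1a4 and Slco1b2, of the chromosome 6 cluster, had r = 0.70 (0.68 without). Slco2b1 and Abcg2 had r = -0.07 over 9 arrays and 0.55 over 8, and Abcc2 and Abcb4 had 0.32 and -0.16. Abcc2 and Slco2b1 had 0.70 and 0.49.

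**Figure D3:**
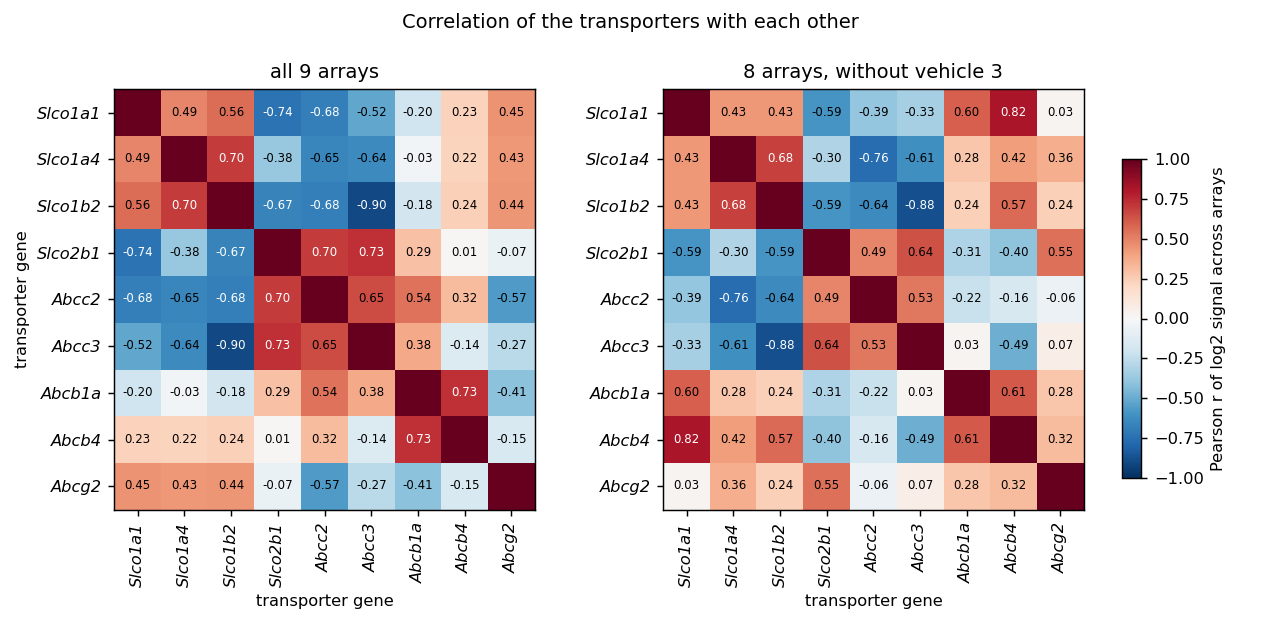
Pearson r of log2 signal for each pair of the 9 transporters (rows and columns), over all 9 arrays in the left panel and over the 8 arrays without vehicle 3 in the right panel, coloured from -1 to 1. Abcc3 and Slco1b2 run opposite in both panels (-0.90 and -0.88), while Slco2b1 with Abcg2 changes sign (-0.07 and 0.55). Slco1a1 was not above background on any array, and Abcb1a was not on vehicle 3.

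For the 3 transporters with the smallest F-test p, the most similar profiles were sought over the 9 arrays among the 5049 named genes in the top quartile of mean signal, 2464 of them above background on all 9. Nearest to Abcc3 were Surf4 (r = 0.976), the heme transporter Slc48a1 (0.975) and the mitochondrial carrier Slc25a39 (0.969). Surf4 had 12.53, 12.10 and 10.88 on vehicle, 11.37, 11.55 and 11.27 on VE50, and 11.48, 11.25 and 11.10 on VE100. As for Abcc3, its 6 treated arrays lay below vehicle 1 and vehicle 2 and above vehicle 3. Among those nearest to Abcb4 were the kinetochore gene Spc25 (0.925) and lactate dehydrogenase Ldha (0.910). Among those nearest to Abcg2 were the proteasome subunit Psmd12 (0.946) and the F-box gene Fbxl5 (0.939). Of these, Spc25 and Fbxl5 were above background on 0 arrays, so their r rests on background signal. Slc48a1 was above background on 2 arrays. It had 11.21 and 10.98 on vehicle 1 and vehicle 2 and 7.91 to 9.35 on the other arrays.

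The sequence upstream of 3 canalicular pumps is shown. Abcb1a and Abcb4 were taken as the pair of highest r with a RefSeq window for both genes. Abcc2 was added because its window matched both AGGTCA and TGACNNNGC, described below, so these matches were fixed by the choice. The windows are the 250 bases before the gene start on the plus strand, from RefSeq (GRCm38.p6): Abcb1a at chr5:8566841-8567090, Abcb4 at chr5:8893471-8893720 and Abcc2 at chr19:43782058-43782307. Capitals mark matches to 4 motifs searched on both strands: AGGTCA (bound by nuclear receptors, found in 14.0% of 32851 RefSeq windows of this length), TGACNNNGC (the antioxidant response core, 10.2%), TTGCNNAA (C/EBP, 9.56%) and TGTTCT (glucocorticoid receptor, 16.1%). On the opposite strand AGGTCA can overlap TGACNNNGC.
Abcb1a: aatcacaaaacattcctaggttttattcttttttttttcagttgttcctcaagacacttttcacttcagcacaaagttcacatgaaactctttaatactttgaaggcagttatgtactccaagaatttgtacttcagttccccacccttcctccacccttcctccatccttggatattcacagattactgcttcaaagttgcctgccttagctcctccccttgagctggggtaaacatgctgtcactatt
Abcb4: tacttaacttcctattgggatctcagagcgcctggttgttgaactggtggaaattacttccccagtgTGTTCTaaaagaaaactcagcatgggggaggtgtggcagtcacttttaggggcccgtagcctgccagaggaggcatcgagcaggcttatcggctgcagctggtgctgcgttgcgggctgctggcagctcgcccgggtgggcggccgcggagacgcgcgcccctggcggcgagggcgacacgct
Abcc2: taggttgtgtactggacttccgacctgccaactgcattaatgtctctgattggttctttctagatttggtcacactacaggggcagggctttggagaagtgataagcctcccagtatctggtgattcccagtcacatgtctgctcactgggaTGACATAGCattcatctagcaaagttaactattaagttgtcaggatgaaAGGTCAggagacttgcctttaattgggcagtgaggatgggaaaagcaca
The Abcb1a window holds none of the 4. The Abcb4 window holds TGTTCT at position -183 from the start. The Abcc2 window holds TGACNNNGC at position -98 and AGGTCA at position -49, the matches for which it was chosen. A match describes letters and is not evidence of binding, and RefSeq windows were matched for 8 of the 9 genes.

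None of the other hepatic transporters listed passed the criterion either. Of 31 measured, including the bile salt pump Abcb11, NTCP and the cholesterol exporters Abcg5 and Abcg8, 0 passed the criterion in each comparison. Of all probe sets, 6.12% passed at VE50, 9.48% at VE100 and 2.91% between doses. The medians of the 31 were -0.05 (VE50), 0.10 (VE100) and 0.10 (VE100 against VE50). The smallest p at each dose belonged to Atp8b1, an aminophospholipid flippase of the canaliculus, with adjusted p = 0.823 at VE50 and 0.533 at VE100. Its signal was above background only on vehicle 1 and vehicle 2. Slco2a1 (adjusted p = 0.831 at VE50), Slco1a6 (adjusted p = 0.564 at VE100) and Slco4a1 (adjusted p = 1.0 between doses) were next, and were not above background on any array. At the criterion without vehicle 3, 1 of the 31 was higher and 5 lower at VE50 (5.95% and 7.52% of all probe sets). At VE100, 3 were higher and 5 lower (6.99% and 9.62%). Between doses 0 passed (2.54% higher, 3.08% lower).

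Among 19 measured regulators and scaffolds, the xenobiotic receptors Nr1i3 and Nr1i2 passed the study's criterion as higher at VE100, but not the adjusted threshold. Nr1i3 (CAR) was 12.78, 13.27 and 11.16 on vehicle, 11.93, 13.01 and 13.89 on VE50, and 13.86, 14.09 and 13.73 on VE100. Its difference at VE100 was 1.49 ± 0.56 (adjusted p = 0.460), and without vehicle 3 it was 0.87 and missed the criterion (adjusted p = 0.357). Nr1i2 (PXR) was 9.11, 9.63 and 8.56 on vehicle, 10.17, 9.33 and 9.79 on VE50, and 10.04, 10.19 and 9.91 on VE100. Its signal was above background on 8 arrays, vehicle 3 excepted. All VE100 arrays of Nr1i2 lay above all vehicle arrays, with a difference of 0.95 ± 0.31 (adjusted p = 0.425) and 0.68 without vehicle 3 (adjusted p = 0.254). Nr1i3 did not pass the test between doses (0.95, adjusted p = 1.0). Both receptors passed the study's criterion at VE100 and not the adjusted threshold.

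The vitamin D receptor Vdr, not above background on any array, met the criterion at VE50 (adjusted p = 0.794) and VE100 (adjusted p = 0.459, missed without vehicle 3). No fold is given for it. Nr5a2 (LRH-1), a regulator of bile acid synthesis, had a difference of -0.52 ± 0.22 at VE50 (adjusted p = 0.795), and -0.51 without vehicle 3, when it missed the criterion. Between doses the difference was 0.34 (adjusted p = 1.0). At the study's criterion, the list's counts were 0 higher and 2 lower at VE50, 2 higher and 1 lower at VE100, and 0 between doses. The medians of the list were -0.02, 0.01 and 0.13. Of all probe sets, 3.31% were higher and 2.8% lower at VE50, 5.11% and 4.37% at VE100, and 1.49% and 1.43% between doses. Vehicle 3 was the lowest array for 14 of these 19 genes, against 20.2% of all probe sets. Without it the counts were 0 higher and 4 lower at VE50, 1 higher and 5 lower at VE100, and 1 higher and 1 lower between doses, against 5.95% and 7.52%, 6.99% and 9.62%, and 2.54% and 3.08% of all probe sets.

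The list of xenobiotic target genes also holds genes of the Ah receptor (Cyp1a1, Cyp1a2, Cyp1b1) and of NRF2 (Nqo1, Gclc, Gclm). At the study's criterion, 2 of its 18 measured genes were higher and 1 lower at VE50. At VE100, 1 was higher and 2 lower, and 1 was lower at VE100 than at VE50. Of all probe sets, 3.31% were higher and 2.8% lower at VE50, 5.11% and 4.37% at VE100, and 1.49% and 1.43% between doses. The medians of the 18 were 0.07, -0.13 and -0.12. P450 oxidoreductase (Por), which feeds electrons to all microsomal P450 enzymes, was 14.33, 14.62 and 12.28 on vehicle, 15.15, 15.21 and 15.43 on VE50, and 15.55, 16.25 and 16.24 on VE100. Every treated array lay above every vehicle array. The difference of Por was 1.52 ± 0.52 at VE50 (adjusted p = 0.794) and 2.27 ± 0.52 at VE100 (adjusted p = 0.319). Without vehicle 3 it was 0.79 at VE50 and 1.54 at VE100 (adjusted p = 0.0201).

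Alas1, the first enzyme of heme synthesis, was higher by 2.11 ± 0.66 at VE50 (adjusted p = 0.794) and by 1.20 without vehicle 3. The subunits of glutamate cysteine ligase, which acts in the synthesis of the glutathione that Abcc2 exports in conjugates, passed the study's criterion as lower. Gclm did so at VE50 (-0.65) and VE100 (-0.66), and Gclc at VE100 (-1.26 ± 0.40). Gclc was 14.59, 14.97 and 14.31 on vehicle and 14.39, 12.93 and 12.77 on VE100, so VE100 1 lay within the vehicle range. The VE50 arrays of Gclm lay below all vehicle arrays, but VE100 2 (13.82) lay above vehicle 3 (13.69). Cyp2c55, a CAR and PXR target in mouse, had a VE100 minus VE50 difference of -1.18 ± 0.51 (adjusted p = 1.0). Its signal was above background on 7 arrays, vehicle 3 and VE100 2 (8.28) excepted, so that size is uncertain. Cyp3a11, the leading PXR target, lay at 19.87 to 19.93 on 8 arrays and at 18.54 on VE100 2; the highest value of any probe set on any array was 19.93. None of these passed the adjusted threshold with all 9 arrays. At the criterion without vehicle 3, 2 of the 18 were higher and 2 lower at VE50, and 1 was higher and 4 lower at VE100. Between doses, 1 was higher and 2 lower. The shares of all probe sets are the same as for the regulators.

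Markers of other liver cells were read beside these values. The Kupffer cell and macrophage mean ran from 6.85 to 7.05 on vehicle, 6.31 to 7.41 on VE50 and 5.64 to 6.59 on VE100, but 7 of its 9 genes were above background on no array. At the study's criterion 1 gene (Adgre1) was lower at VE50, 2 (Adgre1, Cd5l) at VE100 and 2 (Cd5l, Cd68) between doses, against 2.8%, 4.37% and 1.43% of all probe sets. Without vehicle 3, 0, 5 and 4 of the 9 were lower, against 7.52%, 9.62% and 3.08%. Cd5l was above background on 5 arrays, with 9.0 to 10.44 on vehicle, 7.97 to 10.28 on VE50 and 6.40 to 8.19 on VE100, where no array was above background. The cholangiocyte mean (8 genes) ran from 5.12 to 5.72, the stellate cell mean (6 genes) from 7.13 to 7.90, and the lymphocyte mean (5 genes) from 3.65 to 3.94. Of these genes, 7 of 8, 4 of 6 and 5 of 5 were above background on no array, so the means are mostly background signal. The erythroid mean (2 genes) ran from 5.82 to 6.74 and the female-biased hepatocyte mean (5 genes) from 11.64 to 13.31. Their part in the transporter values was not tested.

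**Figure D4:**
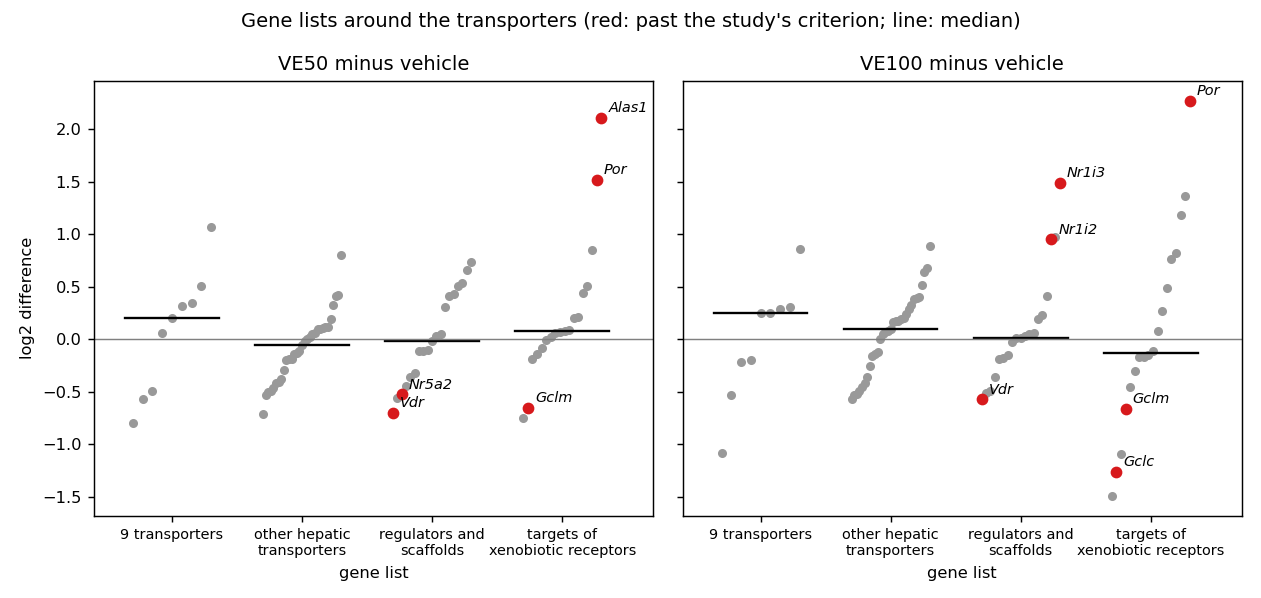
Log2 differences of the individual genes of 4 lists (y axis, one point per gene, ordered by value within each list on the x axis) for VE50 minus vehicle (left) and VE100 minus vehicle (right), with red points for genes past the study's criterion and a line for the list median. The 9 transporters and the 31 other transporters hold 0 red points, the regulators hold 2 and 3, and the target genes hold 3 and 3.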

How the data were processed

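The authors' deposited signal is on the log2 scale, 1 value per probe set on each array. The series' design text names SST-RMA (background correction, normalisation between arrays and summary over probes) in Transcriptome Analysis Console 4.0.2. A deposited log2 value table of the same arrays, which also holds control probe sets, comes from RMA and Transcriptome Analysis Console 4, per the submitters' processing notes. The authors also deposited F-test p-values and a filtered comparison with a signed fold score. Genome build and scan batches are not given in the sources used here.

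All 22206 probe sets were fitted with limma 3.58.1 in R 4.3.3 (lmFit, eBayes, a mean per group, 9 arrays), two-sided, with Benjamini-Hochberg adjustment over all of them. The fit was tested on simulated data. The number of arrays limits precision. The members and the gene lists were chosen with earlier results of these data known. All members are named; from 3 lists (other transporters, regulators, xenobiotic targets), genes past the study's criterion, or the 2 of smallest p per comparison. Surf4 and its like are the 3 best-correlated genes of the 3 members with the smallest F-test p. For Abcb4 and Abcg2, 1 such gene each is not reported here. Genes named outside this rule, such as Slc10a1, Cyp3a11, Saa2 and Lcn2, were chosen after their values were seen. The main fit did not pair arrays by replicate number. The alternatives were leaving out each array, a replicate block, 2 other normalisations, the deposited value table, a filter on dim probe sets, array weights, a trended prior and fits of 2 groups.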

Additional observations from a re-analysis of the deposited data

How the results depend on the processing

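With all arrays, 0 of 9 transporters passed the study's criterion in each comparison. Leaving out 1 array at a time gave 0 to 3 for VE50 against vehicle and 0 to 3 for VE100 against vehicle, with 3 in both without vehicle 3 and 1 in both without vehicle 2. Array weights gave 3 for VE50 and 1 for VE100, and the deposited value table gave 1 for VE100; the cause was not tested. Over all probe sets, 2991 passed for VE50 and 3688 for VE100 without vehicle 3, against 1358 and 2105 with it. Same-numbered arrays deviated together with r from -0.237 to 0.208, 3 of 9 pairs over 0.1, and other pairs from -0.225 to 0.265. With 3 arrays in each group, these ranges cannot settle whether the numbers pair arrays. With the replicate block the count stayed at 0 in each comparison. Of 459 alternative values of single transporters, 414 kept direction and stayed short of the criterion, 13 newly passed and 32 changed sign. No transporter had passed with all arrays, so none could lose its call. With array weights, VE100 against vehicle was -0.16 for Abcb1a, -0.07 for Abcc2 and 0.21 for Slco1a1, VE50 against vehicle was -0.24 for Abcc2, and VE100 against VE50 was 0.0014 for Abcb4, which was also 0.005 after median centring and 0.05 after quantile normalisation. With the value table, VE50 against vehicle was -0.03 for Abcc2, and VE100 against VE50 was 0.03 for Abcg2 and 0.0005 for Slco1a4. Leaving out 1 array at a time, VE50 against vehicle ran from -0.40 to 0.40 for Abcc2, -0.13 to 0.65 for Slco1a1 and -0.02 to 0.91 for Slco1a4. VE100 against vehicle ran from -0.07 to 1.73 for Abcb1a, -0.21 to 0.59 for Abcc2, -0.46 to 0.26 for Slco1a1, -0.14 to 0.68 for Slco1a4, -0.0017 to 0.53 for Slco1b2 and -0.93 to 0.21 for Slco2b1. VE100 against VE50 ran from -0.60 to 0.34 for Abcb1a, -0.14 to 0.13 for Abcb4, -0.44 to 0.19 for Abcg2 and -0.65 to 0.31 for Slco1a4. The Slco1a1 values are of a probe set not above background and give no size of change. A mean over several probe sets was not run, since each transporter has 1 probe set on which its symbol stands alone. Signal also limits Abcb1a on vehicle 3.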
